A study of Mus musculus with 2 samples.

Results

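The miR-181 family was described in the midbrain of newborn mice from its 6 annotated hairpins, Mir181a-1, Mir181b-1, Mir181a-2, Mir181b-2, Mir181c and Mir181d, out of 1973 microRNA genes counted. They were found by matching gene identifiers to GENCODE M21 symbols, a rule that uses no level, although earlier results of these data were known when the family was chosen. The study sequenced microRNAs from 2 libraries, each made from the total RNA of 1 midbrain from a B6NCrl mouse on postnatal day 0, and they form 1 group of 2 animals, called pup 1 and pup 3. There was no other tissue, age or treatment. The sex of the pups was not recorded. The labels give both libraries the same donor identifier, and the spread below is taken as that between 2 pups. The library of pup 1 had 2337113 own-strand counts on microRNA genes and that of pup 3 had 3195277.

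A microRNA hairpin is cut by Drosha and Dicer into a duplex of a 5p and a 3p arm, and the arm loaded into Argonaute pairs through its seed, bases 2 to 8, with messenger RNAs that are then repressed. The miR-181 family is conserved among vertebrates, and its 5p arms are regarded as the guides. It is best known in mouse thymocytes, where miR-181a lowers the threshold of T cell receptor signalling, and it is also expressed in neurons and astrocytes, where it has been studied in synaptic and ischaemic responses. The genes lie in pairs of 1 a-type or c-type and 1 b-type or d-type hairpin.

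The mature 5p sequences are shown because they define the family and decide which reads could be counted. They are from RefSeq on GRCm38.p6, written 5′ to 3′ with the seed in capitals.
miR-181a-5p: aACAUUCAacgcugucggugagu
miR-181b-5p: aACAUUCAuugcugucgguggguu
miR-181c-5p: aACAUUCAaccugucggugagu
miR-181d-5p: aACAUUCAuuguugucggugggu
All 4 carried the seed ACAUUCA, and no other mouse microRNA in the RefSeq table had it. Counting positions from 1 at the 5′ end, miR-181b-5p differed from miR-181a-5p by A9U, C10U and A21G and was 1 base longer. miR-181d-5p differed from miR-181b-5p by C12U and was 1 base shorter, and miR-181c-5p had an edit distance of 1 from miR-181a-5p, 1 base being absent. Differences between the guides therefore all lay outside the seed.

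The 3p arms are shown because they are the arms in which the hairpins of the same letter differ. Seeds are again in capitals.
miR-181a-1-3p: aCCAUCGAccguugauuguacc
miR-181a-2-3p: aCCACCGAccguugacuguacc
miR-181b-1-3p: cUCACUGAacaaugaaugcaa
miR-181b-2-3p: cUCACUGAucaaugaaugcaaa
miR-181c-3p: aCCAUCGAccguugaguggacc
miR-181d-3p: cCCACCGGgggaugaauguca
Against miR-181a-1-3p, miR-181a-2-3p had U5C and U16C, the first of which lies in the seed, and miR-181c-3p had U16G and U19G. The seed CCAUCGA was thus shared by the arms of Mir181a-1 and Mir181c, and UCACUGA by those of Mir181b-1 and Mir181b-2. The arms of Mir181a-2 and Mir181d each had a seed of their own within the family. None of the 4 seeds of the 3p arms was found in another mouse microRNA of the table.

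On GRCm38, with GENCODE M21 coordinates, Mir181a-1 (ENSMUSG00000065565.1) lies at chr1:137966455-137966541 and Mir181b-1 (ENSMUSG00000065458.1) at chr1:137966639-137966718, both on the plus strand with 97 bases between them. Both are in an intron of the noncoding transcript Gm4258, and Mir181b-1 is also within an exon of the noncoding RNA A430106G13Rik, whose first 11 bases overlap the end of Mir181a-1. Mir181a-2 (ENSMUSG00000065423.1) lies at chr2:38852735-38852810 and Mir181b-2 (ENSMUSG00000065578.1) at chr2:38853830-38853918, on the plus strand and 1019 bases apart, opposite an intron of Nr6a1, which encodes an orphan nuclear receptor. Mir181b-2 is also opposite an exon of Gm44144, and no gene was annotated around this pair on its own strand. Mir181c (ENSMUSG00000065483.1 in the counts) lies at chr8:84178873-84178961 and Mir181d (ENSMUSG00000076338.1) at chr8:84178716-84178787, on the minus strand with 85 bases between them, in an intron of a transcript of Nanos3, a germ cell gene. The identifier of Mir181c has a later version in M21 than in the counts, so the interval that was counted may differ from these coordinates.

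Which reads can enter a count differed between the pairs. Reads that map to several places were counted in no gene, and the sequence of miR-181a-5p occurs in both Mir181a hairpins and that of miR-181b-5p in both Mir181b hairpins. The hairpins of these 4 genes, from RefSeq at the positions above, are shown 5′ to 3′ with the longest run they share with their namesake in capitals.
Mir181a-1: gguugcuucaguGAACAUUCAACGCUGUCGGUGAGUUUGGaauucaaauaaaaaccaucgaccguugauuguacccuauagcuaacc
Mir181a-2: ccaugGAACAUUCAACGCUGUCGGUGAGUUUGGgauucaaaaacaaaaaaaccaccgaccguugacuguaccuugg
Mir181b-1: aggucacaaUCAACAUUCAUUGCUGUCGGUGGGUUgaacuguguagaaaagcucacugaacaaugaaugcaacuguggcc
Mir181b-2: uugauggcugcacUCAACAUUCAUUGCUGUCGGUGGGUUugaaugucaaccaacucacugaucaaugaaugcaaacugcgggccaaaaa
The run of the Mir181a hairpins was 28 bases long and went 1 base before and 4 bases past the mature 5p arm. That of the Mir181b hairpins was 26 bases long, began 2 bases before the arm and ended with it, so a read reaching 1 templated base further is not shared. A read that lies in either run and matches it exactly fits at least 2 places, so the counts of these 4 hairpins leave such reads out. The mature sequences of Mir181c, Mir181d and all 6 of the 3p arms occurred in 1 annotated hairpin each. Of the 22-base windows of each hairpin, 59 of 66 were in no other microRNA hairpin for Mir181a-1, 54 of 59 for Mir181b-1, 48 of 55 for Mir181a-2 and 63 of 68 for Mir181b-2, against all 68 for Mir181c and all 51 for Mir181d.

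**Figure D1:**
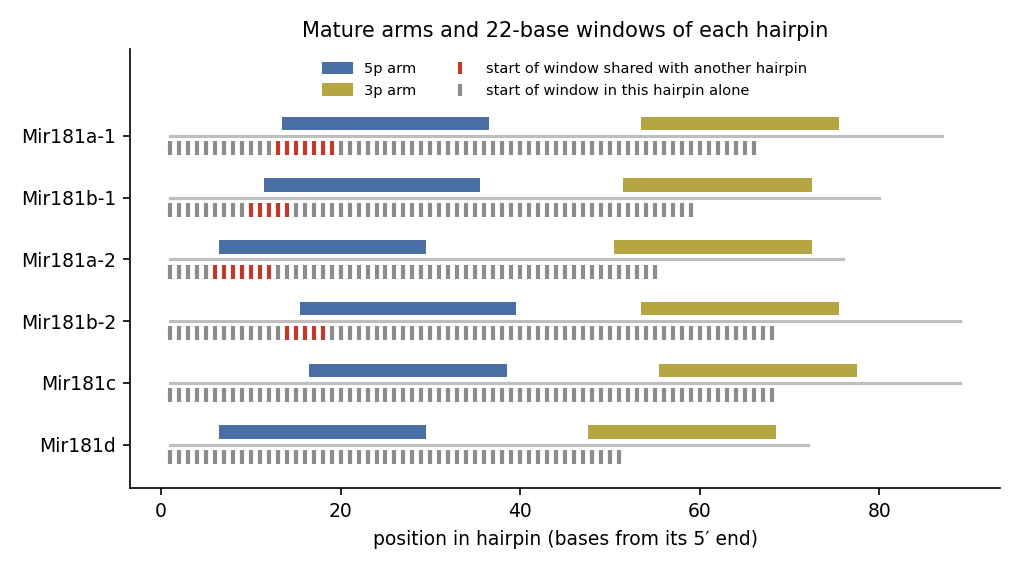
Each line is a miR-181 hairpin from its 5′ end, with position in bases on the x axis; blue and ochre bars are the mature 5p and 3p arms, and ticks below mark the start of each 22-base window, red where the window also occurs in another microRNA hairpin. Red ticks stand at the 5p arms of Mir181a-1, Mir181a-2, Mir181b-1 and Mir181b-2, with 7, 7, 5 and 5 shared windows, and at no window of Mir181c and Mir181d.

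Reads mapping to several places numbered 2111487 in pup 1 and 2937457 in pup 3, or 34.4 and 32.9 for each read counted on a miR-181 hairpin. How many of them belonged to miR-181a-5p or miR-181b-5p cannot be read from the counts. The levels below are therefore those of uniquely placed reads and are no measure of the abundance of miR-181a or miR-181b.

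All 6 hairpins were detected (10 counts or more in both libraries), as were 18.2% of the 1973 genes. With a minimum of 50 counts in each library 5 of the 6 were detected, Mir181b-1 being left out, against 279 of the 1973 genes. Together they held 61467 counts in pup 1 and 89378 in pup 3. Of all own-strand counts this was 2.63% for pup 1 (Clopper-Pearson 95% interval 2.61 to 2.65) and 2.80% for pup 3 (2.78 to 2.82), a mean of 2.71% ± 0.118 (SD, n = 2). The intervals did not overlap, and they cover counting error only. Every count lay on the annotated strand: the opposite-strand columns held 0 counts for all 6 hairpins, which allows up to 3 counts each, equal to 1.28 CPM for pup 1 and 0.939 CPM for pup 3. CPM means own-strand counts after each library's gene total is set to 1000000.

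Mir181c, which carries the miR-181c arms, led the family with 33609 counts (14381 CPM) in pup 1 and 49623 counts (15530 CPM) in pup 3. Its mean of 14955 ± 813 CPM (SD, n = 2) was the 13th highest of all genes, above 96.4% of the detected ones. Mir181d, its neighbour, had 15123 counts (6471 CPM) in pup 1 and 23445 counts (7337 CPM) in pup 3, a mean of 6904 ± 613 CPM at rank 32. These hairpins, whose mature 5p sequence occurs in no other annotated hairpin, were the highest of the 6 in both pups.

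Mir181a-1 came next with 9635 counts (4123 CPM) in pup 1 and 12980 counts (4062 CPM) in pup 3, a mean of 4092 ± 42.7 CPM at rank 51. Mir181b-2 had 1884 counts (806 CPM) in pup 1 and 2705 counts (847 CPM) in pup 3, with a mean of 826 ± 28.6 CPM at rank 111. The pups were close to each other for both hairpins.

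Mir181a-2 had 1197 counts (512 CPM) in pup 1 and 603 counts (189 CPM) in pup 3, a mean of 350 ± 229 CPM at rank 163. Its SD was the widest of the family relative to its mean. Mir181b-1 was the lowest, with 19 counts in pup 1, or 8.13 CPM (Clopper-Pearson 95% interval 4.89 to 12.7), and 22 in pup 3, or 6.89 CPM (4.31 to 10.4), above 7.80% of the detected genes. The median of the 6 means was 2459 CPM, and that of all 359 detected genes was 225 CPM.

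**Figure D2:**
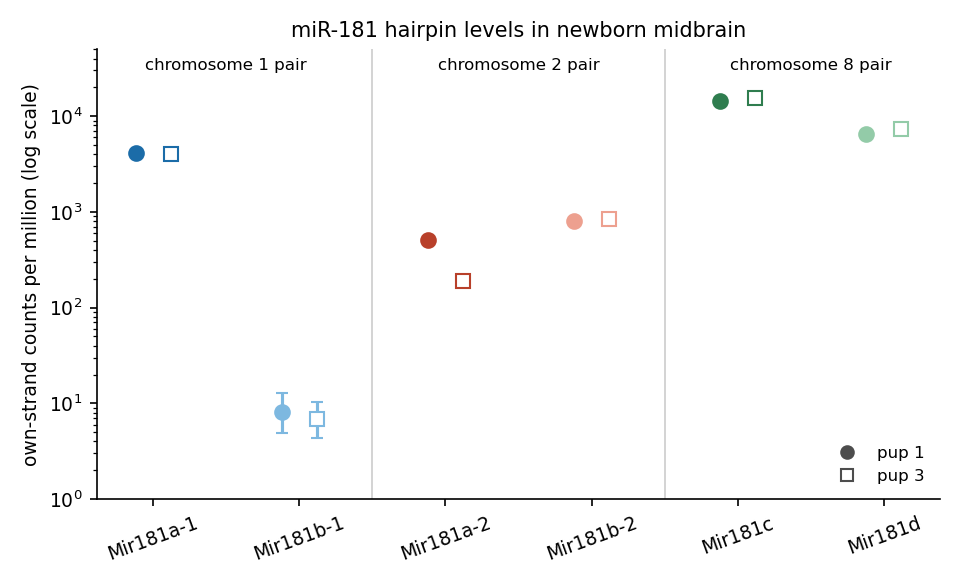
CPM on a log axis for each miR-181 hairpin, grouped by genomic pair; filled circles are pup 1, open squares are pup 3 and bars are exact 95% counting intervals, mostly smaller than the symbols. Mir181c stands highest at 14381 and 15530 CPM and Mir181b-1 lowest at 8.13 and 6.89 CPM, and the pups are visibly apart at Mir181a-2.

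The falling order Mir181c, Mir181d, Mir181a-1, Mir181b-2, Mir181a-2, Mir181b-1 was the same in each pup, and no neighbours in it overlapped between the pups. With 2 pups this order has no test. A mature arm is cut once per hairpin, whatever its length, and lengths were close, from 72 bases for Mir181d to 89 for Mir181b-2 and Mir181c. Per kb of hairpin the order stayed the same, with 161579 CPM per kb in pup 1 and 174496 in pup 3 for Mir181c, and 102 and 86.1 for Mir181b-1.

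**Figure D3:**
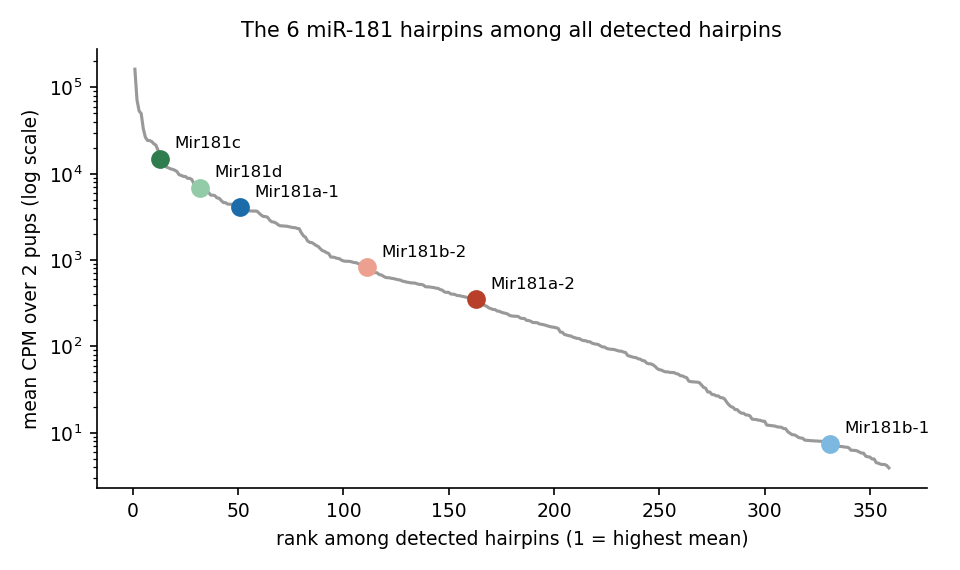
Mean CPM over 2 pups on a log axis against rank for all 359 detected genes (grey line), with the 6 miR-181 hairpins as coloured points. They spread over most of the range, from 14955 CPM for Mir181c to 7.51 CPM for Mir181b-1.

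By locus, the chromosome 8 pair held 79.3% of the family's counts in pup 1 (95% interval 79.0 to 79.6) against 81.8% in pup 3 (81.5 to 82.0). The chromosome 1 pair held 15.7% in pup 1 and 14.5% in pup 3. The chromosome 2 pair held 5.01% in pup 1 (4.84 to 5.19) and 3.70% in pup 3 (3.58 to 3.83). Because exact reads within the shared runs of the chromosome 1 and chromosome 2 pairs enter no count, these shares do not compare the output of the loci.

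Within the pairs, both hairpins come from the same library, so scaling cancels in their ratio. Mir181c had 2.22 times the counts of Mir181d in pup 1 (95% counting interval 2.18 to 2.27) and 2.12 times in pup 3 (2.08 to 2.15). The ratio in pup 1 was 1.05 times that in pup 3 (1.02 to 1.08). In this pair, the only one in which neither mature 5p sequence occurs in another annotated hairpin, the pups thus differed little.

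In the chromosome 1 pair Mir181a-1 had 507 times the counts of Mir181b-1 in pup 1 (325 to 843) and 590 times in pup 3 (390 to 942), and the ratio in pup 1 was 0.860 times that in pup 3 (0.465 to 1.59). The difference between the pups was not detectable at the 19 and 22 counts of Mir181b-1. The count of the a-type hairpin was far above that of its neighbour here, whereas on chromosome 2 it was the lower of the pair. In both pairs exact reads within the shared runs are left out, so neither ratio compares the output of the hairpins.

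On chromosome 2 Mir181a-2 had 0.635 times the counts of Mir181b-2 in pup 1 (0.590 to 0.683) and 0.223 times in pup 3 (0.204 to 0.244). The ratio in pup 1 was 2.85 times that in pup 3 (2.54 to 3.19), which exceeds counting error. These intervals hold no spread between animals.

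**Figure D4:**
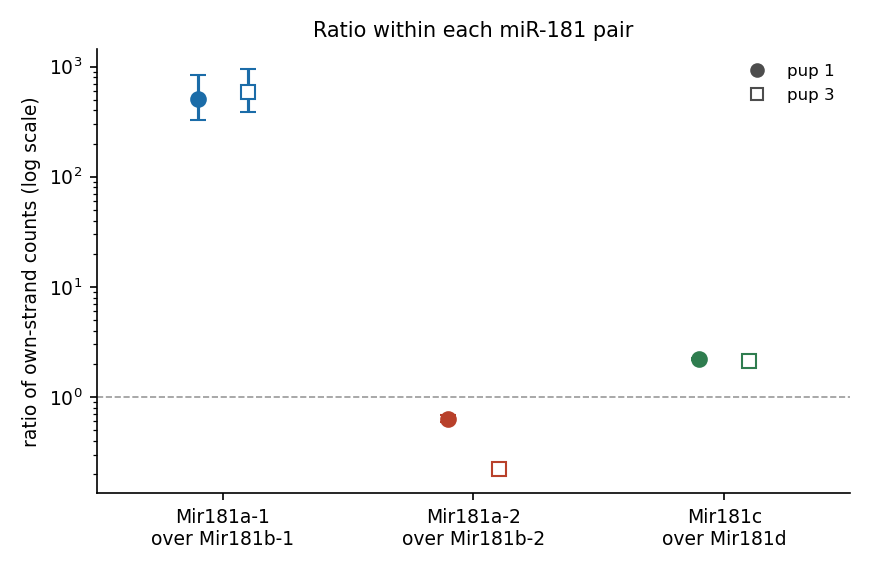
Ratio of own-strand counts within each miR-181 pair on a log axis, filled circles for pup 1 and open squares for pup 3, with exact 95% counting intervals; the dashed line marks equal counts. The Mir181a-2 over Mir181b-2 ratio stands apart between the pups, at 0.635 and 0.223, while Mir181c over Mir181d is 2.22 and 2.12.

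Set against the rest of the table, the family was close between the pups except for Mir181a-2. Ratios of pup 1 over pup 3 were taken after TMM scaling for the 286 genes whose counts averaged 50 or more, among them 5 members. At 1.5-fold, 1 of these 5 differed, as did 6.64% of the 286 genes. Mir181a-2 was 2.81-fold higher in pup 1 (95% counting interval 2.54 to 3.10), a log2 ratio of 1.49, and had the fifth largest ratio in either direction. Exact reads within the run shared with Mir181a-1 enter no count of Mir181a-2, so this ratio is one of uniquely placed reads. Whether their share of all reads from this hairpin differed between the pups was not tested. In tissue RNA, more cells that make a microRNA and more of it per cell cannot be told apart. The median absolute log2 ratio of the 286 genes was 0.15.

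Mir181a-1 had a log2 ratio of 0.07 (1.02 to 1.08-fold), Mir181b-2 of -0.02 (0.928 to 1.05-fold), Mir181c of -0.06 (0.945 to 0.971-fold) and Mir181d of -0.13 (0.894 to 0.931-fold). All 4 were smaller than the median absolute ratio of the tested genes. Mir181b-1, below the count minimum, had a log2 ratio of 0.28 with an interval of 0.625 to 2.37-fold. With 1 animal on each side these ratios have no replicate check.

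**Figure D5:**
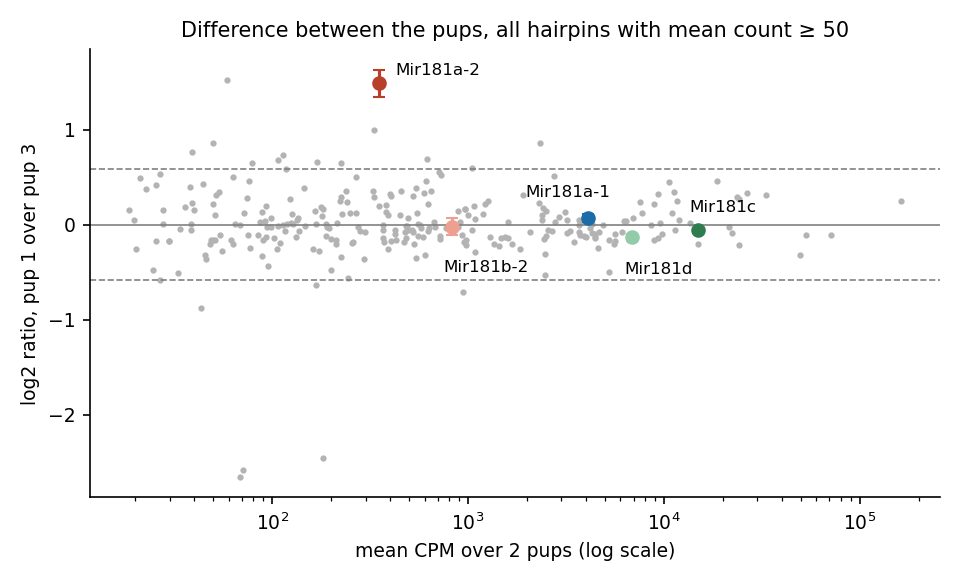
Log2 ratio of pup 1 over pup 3 against mean CPM (log axis) for the same 286 genes (grey) and the 5 miR-181 hairpins among them (coloured, with 95% counting intervals); dashed lines mark 1.5-fold. Mir181a-2 stands at 1.49, and the other members lie between -0.13 and 0.07.

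Hairpins of the same mature 5p sequence were unequal in uniquely placed reads. Exact reads within their shared run enter neither count, so the folds do not compare the output of the copies. Mir181a-1 had 8.05 times the counts of Mir181a-2 in pup 1 (95% counting interval 7.58 to 8.55) and 21.5 times in pup 3 (19.8 to 23.4). Mir181b-2 had 99.2 times the counts of Mir181b-1 in pup 1 (63.3 to 165) and 123 times in pup 3 (81.0 to 197). The higher of each pair of namesakes was on chromosome 1 for the a-type and on chromosome 2 for the b-type.

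Among hairpins matched to a RefSeq mature sequence, 16 detected pairs share one with each other and with no further hairpin. Their median fold in counts between the higher and the lower was 2.74. The Mir181b pair had the largest fold of the 16 and the Mir181a pair the fourth largest. In how far that fold differed between the pups, the Mir181a pair was first, at 1.42 on the log2 scale, ahead of 0.68 for the pair of Mir7-1 and Mir7-2 and a median of 0.21. A RefSeq mature sequence was matched to 916 of the 1973 genes, and the other 1057 are neither in these pairs nor in the following sets. Outside the family, 40 of 97 hairpins (41.2%) with a mature sequence found in another hairpin were detected, with a median of 257 CPM, against 282 of 813 (34.7%) without one, with a median of 225 CPM. The pairs are a description of these libraries and were chosen with the values of the family known.

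Over the 2 libraries, the detected gene nearest in level was Mir26b for Mir181c (pup 1, 13583 CPM; pup 3, 16196 CPM), at a distance of 0.102 on the log2 scale. Mir322 was nearest to Mir181d (6149 and 7108 CPM), Mir154 to Mir181a-1 (4077 and 4321 CPM) and Mir384 to Mir181b-2 (820 and 856 CPM). For Mir181a-2 the nearest was Mir346, whose 436 CPM in pup 1 stood against 226 CPM in pup 3, with a distance of 0.348, the widest of the 6. Mir29b-2 was nearest to Mir181b-1, at 8.56 and 7.20 CPM.

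Markers of the cells that a dissected midbrain can hold are given beside the difference in Mir181a-2, and their part in it was not tested. Neuron-enriched microRNAs summed to 44203 CPM for pup 1 and 49205 CPM for pup 3, with 8 of 11 counted members detected, led by Mir137 and Mir153. The lower sum in pup 1 came from these leaders, with log2 ratios of -0.21 and -0.14, while the other 5 tested members had ratios above 0 and the median of the 7 was 0.10. The oligodendrocyte list summed to 1656 and 1549 CPM and the mural and mesenchymal list, led by Mir143, to 7465 and 7337 CPM. Endothelial Mir126a had 36188 CPM for pup 1 and 30095 CPM for pup 3. Past 1.5-fold were 0 of 7 neuron-enriched, 0 of 3 oligodendrocyte, 0 of 3 mural and 0 of 1 endothelial members tested, against 6.64% of all tested genes, counts too small to tell from that share. Mir145b of the mural list was at 0 counts.

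The lymphocyte and leukocyte list, of interest because miR-181a acts in thymocytes, summed to 12748 CPM for pup 1 and 9737 CPM for pup 3. Mir342, which the brain also expresses, made up most of this sum, with 12073 and 9135 CPM, followed by Mir150 with 262 and 213 CPM. Of its 5 tested members 0 passed 1.5-fold, against 6.64% of all tested genes, and Mir142b was at 0 counts. Of the 8 microRNAs on this list 7 were matched to a counted gene. Mir142 was not, so its level is not known here and the count of Mir142b is no measure of it. The erythroid list summed to 125 and 74.2 CPM, with 1 of 2 tested members past 1.5-fold higher in pup 1, against 4.55% of all tested genes: Mir451a, at 86.4 and 31.0 CPM. Mir144 of the same locus went the other way in CPM, with 20.1 in pup 1 and 29.1 in pup 3. Mir486, below the count minimum, was higher in pup 1, with 18.0 against 14.1 CPM.

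The epithelial miR-200 list summed to 222 counts for pup 1 and 1898 counts for pup 3, with 3 of 3 tested members past 1.5-fold lower in pup 1, against 2.10% of all tested genes. They were Mir200b, Mir200c and Mir429, with log2 ratios of -2.66, -2.58 and -2.46. Liver Mir122 had 58.6 and 47.9 CPM. The striated muscle list summed to 19.7 CPM in each pup, all from Mir206, with Mir1a-1, Mir133a-1 and Mir133a-2 at 0 counts. The Hox cluster list, of the neighbouring hindbrain and spinal cord, summed to 1104 and 912 CPM, led by Mir10a and Mir10b, with Mir196a-1 at 0. Among marker hairpins matched to a RefSeq mature sequence, 4 of 8 neuron-enriched, 2 of 3 oligodendrocyte, 2 of 3 mural and 2 of 6 Hox cluster ones share one with another hairpin. Their counts also leave out reads that map to several places, and the Mir124a and Mir133a hairpins, named copies of one another, were not matched. Zeros and low counts of these hairpins, and sums that include them, are therefore no measure of a low level. Among matched hairpins, 0 of 7 lymphocyte and leukocyte, 0 of 5 epithelial and 0 of 2 erythroid ones share one.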

How the data were processed

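The authors deposited raw read counts per gene for each library, from alignments to assembly mm10 with genome annotation M4, per the deposited file descriptions. For the aligner and the counter, the sources used here name no tool. The deposited counts have 3 columns, read from their sums as either strand, own strand and opposite strand, and own-strand counts were used. A further 4 rows that name no gene (unmapped, multi-mapping, no feature, ambiguous) held 57.2% of the reads from pup 1 and 56.7% from pup 3, of which multi-mapping reads were 38.7% and 39.8% of all reads. They stayed out of library totals.

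Identifiers were matched without version to GENCODE M21 on GRCm38 (mm10), which gave symbols for 1894 of 1973 genes. Mature and hairpin sequences are from RefSeq on GRCm38.p6. All 6 members had mature sequences there. The members' windows of 22 bases and mature sequences were searched, on both strands, in GENCODE M21 microRNA hairpins, and their mature sequences also in the other transcripts. For the pairs, sets and marker hairpins that share a mature sequence, only the hairpins' own strand was searched. Hairpins that overlap each other were not compared there. The genome itself was not searched.

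Pup 1 over pup 3 ratios used edgeR 4.0.16 TMM scaling with a prior count of 0.5 (R 4.3.3), and counting intervals are exact binomial at 95% (scipy 1.17.1). The interval of a ratio of ratios is a normal one on the log scale. Reads without molecular identifiers are not independent molecules, and every interval and floor covers counting error alone. No p-value was computed, since 1 group of 2 animals offers no comparison of conditions. A chi-square over the 286 tested genes was 33249 (285 degrees of freedom), far above what independent sampling of reads from 1 library gives. It cannot tell 2 animals from 2 libraries made from 1 animal. Pup ratios were tested on simulated data first. Alternatives were DESeq2 1.42.0 size factors, other totals, strand columns, prior counts, thresholds and window lengths, and each pup alone.

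The members, marker lists and rules were chosen with earlier results of these data known. Named genes are the 6 members, the nearest gene in level to each and up to 2 leading members of each marker list. List members past 2-fold were named where their counts averaged 50 or more. Mir142b, Mir145b, Mir144, Mir486, Mir206, Mir1a-1, Mir133a-1, Mir133a-2, Mir196a-1 and the Mir7 pair were named after their values were seen. Mir142 was named because no counted gene was matched to it.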

Additional observations from a re-analysis of the deposited data

How the results depend on the processing

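Of 42 alternative values of the members' pup ratios, 38 stayed within the counting interval of the value reported, and Mir181a-2 ranged from 1.44 to 1.49 on the log2 scale. With plain CPM in place of TMM scaling the log2 ratio was 0.02 for Mir181a-1, -0.11 for Mir181c and -0.18 for Mir181d, and less the linear trend on level it was -0.09 for Mir181c. The directions were those reported. The family share was 3.24% without the most abundant gene in the total and 1.17% of all reads in the file, as a smaller and a larger denominator give. Genes past 1.5-fold numbered 19 of 286, against 45 of 372 (12.1%) with a mean count of at least 10, and 5 past 2-fold. Detected genes numbered 559 with a minimum of 1 count in each library and 279 with 50, where 5 of the 6 members remained. With windows of 18 bases 81.4% of the windows of Mir181a-2 were in no other hairpin, against 87.3% with 22 bases. Either-strand counts could not change the cluster shares and pair ratios, since no member had opposite-strand counts. The order of the members was the same in each pup alone. Without replicate 1 or replicate 2 the Mir181a-2 over Mir181b-2 ratio was 0.223 or 0.635, a move of over 1.5 times from their geometric mean of 0.376. No paired analysis was possible because there is 1 group. Depth limits Mir181b-1, at 19 and 22 counts. The loss of multi-mapping reads limits the 4 hairpins with a shared 5p arm, whose true levels cannot be given here.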
